A study of Schizosaccharomyces pombe with 8 samples.

Results

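Introns of vesicle traffic genes were followed in fission yeast, Schizosaccharomyces pombe, strains whose splicing machinery carries temperature-sensitive mutations. The members were the annotated introns of genes whose symbol in the reference annotation begins with vps, ypt, sec, apm, apl, aps, arf, trs, bet, sed, vti or sar and a digit. The rule took in 110 genes, of which 75 had 203 annotated introns among the 5144 in the deposited table. Of these 203 introns, 151 introns in 60 genes had at least 10 reads in every library and were tested, among 3352 introns in 1752 genes that passed the same minimum. Each of 6 mutant strains had 1 library, and wild type (WT, strain ED666) had 2. The mutants were prp1-G705D, prp10-R379H, prp22-V801M;G917R, cwf22-G191D, sap114-A152V and ntr1-W597R. All cultures, WT included, were grown in rich medium (YPD) at 25 °C and then shifted to 37 °C, where they stayed 15 minutes, and poly(A) RNA from 1 µg of total RNA was sequenced in directional libraries. No library was kept at 25 °C in the samples used here, so the mutation is compared at the higher temperature only. Each mutant is 1 strain in 1 library, nothing in the labels says that the 2 WT libraries came from separate cultures, and p-values measure only the spread between these libraries, which may be technical.

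Proteins and membrane move between compartments in vesicles. Coat proteins shape a vesicle and gather its cargo: COPII at the endoplasmic reticulum (ER), COPI at the Golgi, and the AP adaptor complexes at later stations. Arf and Sar GTPases recruit the coats, retromer returns receptors from endosomes, Rab GTPases mark each membrane and call in tethers, and SNARE proteins on facing membranes zip together to fuse them, with SM proteins (Sec1/Munc18 family) and SNAP as partners. The spliceosome recognises the 5′ splice site, the branch site and the 3′ splice site of an intron, and SF3a and SF3b of the U2 snRNP (sap114 and prp10) bind around the branch site, prp1 belongs to the tri-snRNP, cwf22 to the assembled spliceosome, prp22 releases spliced mRNA and ntr1 helps take the spliceosome apart. An intron left in a coding sequence usually brings a stop codon into frame.

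The measure was the unspliced share, the reads counted as unspliced over unspliced plus spliced reads at an intron. The introns below are shown because the results turn on them: the Rab introns with the smallest changes in percentage points and those that departed from the typical intron, introns of other roles with large changes, 1 of the 2 shortest tested traffic introns, and the one that did not pass the test. They are ypt1 intron 3 (chrII:2933391-2933453, plus strand), ypt5 intron 4 (chrI:2762723-2762786, plus strand), ypt3 intron 1 (chrI:2215736-2215791, plus strand), ypt71 intron 2 (chrI:1881326-1881379, minus strand) and vti1 intron 1 (chrII:4004983-4005019, plus strand). The others are sed5 intron 1 (chrII:1384739-1384829, minus strand), apm1 intron 3 (chrII:1911141-1911218, plus strand), trs120 intron 2 (chrI:3222783-3222847, minus strand), sec8 intron 1 (chrIII:495723-495766, minus strand), vps1 intron 1 (chrI:1999199-1999249, minus strand) and vps66 intron 3 (chrI:2189846-2189906, minus strand). Capitals mark the first 6 bases, the last 3 bases and the inferred branch motif, which is the last CTAAC or CTAAT or CTGAC or CTGAT on the transcribed strand within 60 nt of the intron's end. No such motif was found in ypt1 intron 3, ypt3 intron 1 or sec8 intron 1, which says only that these letters are not in that window. All lie in coding sequence except ypt3 intron 1, which lies in the 5′ UTR. Coordinates are those of the deposited table in build ASM294v2, and the letters are those of RefSeq's ASM294v3 at the same coordinates, where all 203 member introns matched an annotated intron at both ends and all 151 tested ones begin with GT and end in AG.
ypt1 intron 3: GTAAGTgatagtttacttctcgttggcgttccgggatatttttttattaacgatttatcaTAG
ypt5 intron 4: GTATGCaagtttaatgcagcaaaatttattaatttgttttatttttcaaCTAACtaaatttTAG
ypt3 intron 1: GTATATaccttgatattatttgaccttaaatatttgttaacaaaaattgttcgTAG
ypt71 intron 2: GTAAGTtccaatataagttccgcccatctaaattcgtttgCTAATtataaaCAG
vti1 intron 1: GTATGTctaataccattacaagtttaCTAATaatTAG
sed5 intron 1: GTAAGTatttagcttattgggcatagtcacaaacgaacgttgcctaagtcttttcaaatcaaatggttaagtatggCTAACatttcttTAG
apm1 intron 3: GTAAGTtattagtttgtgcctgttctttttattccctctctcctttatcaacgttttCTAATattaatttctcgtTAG
trs120 intron 2: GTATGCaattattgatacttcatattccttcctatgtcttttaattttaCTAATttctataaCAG
sec8 intron 1: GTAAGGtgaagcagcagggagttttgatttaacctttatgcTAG
vps1 intron 1: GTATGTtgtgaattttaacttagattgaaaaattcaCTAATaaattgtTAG
vps66 intron 3: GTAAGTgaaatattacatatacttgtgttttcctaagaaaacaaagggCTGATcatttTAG

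Across the traffic introns, unspliced reads took a much larger share in every mutant than in WT. The median unspliced share of the 151 introns was 79.6% in ntr1, 75.5% in sap114, 68.0% in cwf22, 67.1% in prp22, 59.1% in prp10 and 35.1% in prp1, against 3.77% in WT 1 and 4.99% in WT 2. The mutant medians averaged 64.1% ± 15.9 (SD over 6 strains) and the WT medians 4.38% ± 0.86 (SD, n = 2), and the ranges did not overlap. More reads were unspliced than spliced at 143 of the 151 introns in ntr1, 132 in sap114, 111 in cwf22, 117 in prp22, 100 in prp10 and 38 in prp1, against 0 in either WT library. Over all tested introns that share was 88.1% in ntr1, 84.0% in sap114, 72.8% in cwf22, 76.1% in prp22, 66.8% in prp10 and 32.8% in prp1, against 3.46% in WT 1 and 3.67% in WT 2. With the mutants taken as 1 class against WT, 150 of the 151 introns rose and 0 fell (edgeR's quasi-likelihood test, Benjamini-Hochberg adjusted p below 0.05 over all tested introns), where 95.6% of all tested introns rose. At 150 introns every mutant's share lay above both WT shares, as it did at 97.0% of all tested introns. Both counts are near the background of all tested introns. Their median log2 change of the odds (unspliced over spliced reads) was 5.31, or 5.15 with the 14 introns that had 0 unspliced reads in both WT libraries set at the bound that 3 reads give, beside 5.02 and 4.89 for all tested introns.

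Depth differed between the libraries. Spliced plus unspliced reads over all annotated introns ran from 809751 (prp10) to 1858792 (ntr1) in the mutants and were 420473 in WT 1 and 846804 in WT 2, and a tested traffic intron had a median of 68.0 (prp10) to 130 reads (ntr1) in the mutants, against 33.0 and 65.0 in WT 1 and WT 2. WT 1 was the shallowest library, and 40 tested traffic introns had 0 unspliced reads in it, against 21 in WT 2. For the introns named here the 95% Wilson interval of a single share, which covers counting error only, had a median width between 8.6 and 14.6 points in the mutants, against 10 and 6.6 points in WT 1 and WT 2. The width follows the size of a share as well as the depth. The part of depth in the results was not tested. The table also seldom lists unspliced reads where a library has no spliced read: all 79 such entries of the member introns, and 2845 of 3029 over all annotated introns, have 0 unspliced reads as well. Of the 79, 20 were in sap114, 15 in cwf22, 13 in ntr1, 13 in prp10, 7 in prp22 and 3 in prp1, against 4 in WT 1 and 4 in WT 2. A member intron without a spliced read in a mutant therefore did not reach the minimum there, whatever its unspliced reads, and the tested introns leave such introns out. In poly(A) RNA, slower splicing and slower loss of unspliced transcripts cannot be told apart.

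The strains differed in extent. Against WT, the number of traffic introns that rose was 150 in ntr1 (97.4% of all tested introns rose), 148 in sap114 (96.6%), 145 in cwf22 (93.7%), 150 in prp22 (95.7%), 143 in prp10 (91.8%) and 138 in prp1 (86.2%), and 0 fell in any strain (edgeR, 1 fit with 1 residual degree of freedom, so that the spread comes from the WT pair alone). The median log2 change of the odds was 6.33 in ntr1, 5.94 in sap114, 5.32 in cwf22, 5.27 in prp22, 4.96 in prp10 and 3.47 in prp1. The unspliced share was highest of the 6 mutants in ntr1 at 83 introns and in sap114 at 48, and lowest in prp1 at 138. This order of strains is also that of all tested introns, whose library medians ran from 38.9% in prp1 to 81.5% in ntr1.

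The roles differed in level. Rab introns (18 in 5 genes) and SNARE introns (11 in 4 genes) were the lowest, with median mutant shares of 47.9% and 51%, and Arf and Sar introns (4 in 3 genes) stood at 55.2%. Coat introns (25 in 11 genes) had a median of 65.7%, retromer introns (10 in 4 genes) 68.7% and tether introns (30 in 13 genes) 69.3%, beside 66.1% over all tested introns. Library by library, the Rab median was 68.8% in ntr1, 64.6% in sap114, 53.4% in cwf22, 43.1% in prp22, 45.5% in prp10 and 21.6% in prp1, against 2.52% in WT 1 and 3.66% in WT 2. The coat median was 85.4% in ntr1, 80.9% in sap114, 70.6% in cwf22, 71.3% in prp22, 63.2% in prp10 and 28.1% in prp1, against 2.35% in WT 1 and 3.51% in WT 2. The Rab median lay below the coat, the retromer and the tether median in 6 of 6 mutants, by 17.1 ± 6.90 points for coat (SD over 6 strains), 19.6 ± 6.10 for retromer and 19.2 ± 7.18 for tether introns. SNARE introns lay below coat introns in 6 of 6 mutants too, by 2.51 to 24.7 points, while Rab and SNARE medians differed by less than their spread over strains (Rab minus SNARE -1.25 ± 5.49 points). In WT 1 and WT 2, Rab minus coat was 0.162 and 0.148 points. Rab introns were lower than the other 2 roles in both WT libraries as well. Rab minus retromer was -2.75 and -2.04 points there, and Rab minus tether -1.09 and -3.25. These are descriptions of lists, with no test over them.

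**Figure D1:**
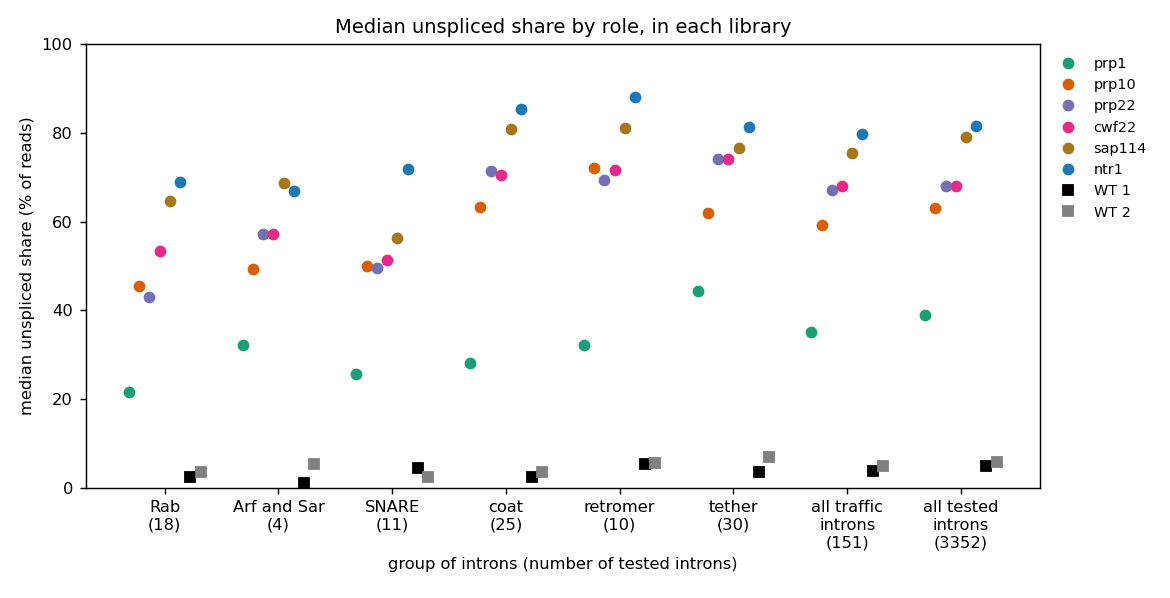
Median unspliced share (percent of reads, y axis) of the tested introns of each role (x axis, number of introns in brackets) in each library, with circles for the 6 mutants and squares for WT 1 and WT 2. Rab and SNARE medians sit below coat, retromer and tether medians in each of the 6 mutants, and prp1 is the lowest mutant in every role.

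On the odds scale the roles came in another order. Rab introns had a median log2 change of 5.23, Arf and Sar introns 5.40, SNARE introns 4.804 and retromer introns 5.56, beside 5.02 over all tested introns. Coat introns had 6.03, or 5.63 with their 4 introns at 0 in both WT libraries set at the bound, and tether introns 5.25, or 4.95 with 5 such introns at the bound. ESCRT introns were the lowest of these at 4.25. Within coats and tethers the range was wide: adaptors had 6.38 and the exocyst 6.48, or 5.70 and 5.03 with the introns at 0 in WT at the bound, COPI 5.77 and TRAPP 5.001. Rab introns were also read more deeply, with a median of 932 reads per intron in both WT libraries together, against 81.0 for coat, 116 for retromer, 226 for SNARE and 50.5 for tether introns. Over the 151 introns the summed WT reads and the mean mutant share had a Spearman rho of -0.28 (all tested introns -0.13), a description across introns that share libraries. All 18 Rab introns were among the 76 introns at or above the median depth, where the median mutant share was 59.0%, against 68.8% for the 75 introns below it. The part of depth in the role medians was not tested.

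Rab GTPases. ypt1 encodes the Rab of ER-to-Golgi transport (Rab1 type), ypt3 a Rab of late secretion and cell division (Rab11 type), ypt5 the endosomal Rab (Rab5 type), and ypt7 and ypt71 are 2 Rab7-type GTPases of the vacuole. The gene of the exocytic Rab, ypt2, has no annotated intron, and the introns of ypt4 did not reach the minimum depth. All 18 tested Rab introns rose, as 95.6% of all tested introns did. In percentage points the smallest rise was that of ypt1 intron 3, unspliced at 41.7% in ntr1, 38.9% in sap114, 29.3% in cwf22, 30.2% in prp22, 19.8% in prp10 and 10.5% in prp1, against 0.52% in WT 1 and 1.42% in WT 2. Each mutant stood above both WT libraries (class log2 change of the odds 5.31 ± 0.96, SE, adjusted p = 3.3e-06, edgeR), yet in none did unspliced reads outnumber spliced ones. On the odds scale the smallest Rab rises were those of ypt1 intron 1 (3.04) and ypt5 intron 4 (3.18). Intron 2 of ypt1 had 17.3 to 52.6% in the mutants (mean 34.1%), against 1.33% and 1.42% in WT. Intron 4 of ypt1 had 27.4 to 72.1% in the mutants (mean 57.1%), against 3.07% and 7.01% in WT.

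ypt3 introns stood higher. Intron 2, of 244 nt, was unspliced at 95.5% in ntr1, 96.4% in sap114, 91.9% in cwf22, 87.1% in prp22, 86.8% in prp10 and 57.6% in prp1, against 10.8% in WT 1 and 13.5% in WT 2. Its share rose by 73.8 points, the most points of any Rab intron, from a WT share that was already above the WT median of the set (adjusted p = 1.1e-06, edgeR). The 5′ UTR intron of ypt3, intron 1, had 85.4% in ntr1, 87.6% in sap114, 82.2% in cwf22, 72.1% in prp22, 57.8% in prp10 and 25.7% in prp1, against 1.1% in WT 1 and 3.0% in WT 2. Here prp1 stood far below the other 5 mutants, and all 6 stood above WT. Intron 3 had 21.3 to 78.5% in the mutants (mean 51.8%), against 0.905% and 2.53% in WT.

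Within ypt5, whose 7 introns were all tested, the introns differed widely. Introns 1 and 3 had mean mutant shares of 66.5% and 66.3%, introns 5, 6 and 7 of 52.7%, 43.5% and 46.5%, and introns 2 and 4 of 34.0% and 34.8%. The order was not the same in every strain: intron 1 was the highest in 4 of 6 mutants, and intron 2 the lowest in 3. For intron 4 the shares were 51.5% in ntr1, 34.9% in sap114, 43.4% in cwf22, 24.9% in prp22, 36% in prp10 and 18.1% in prp1, against 5.71% in WT 1 and 4.99% in WT 2. In WT this intron was not the lowest of the gene, since intron 2 had 0.856% and intron 4 5.35%.

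The vacuolar Rabs differed from each other. The long intron 1 of ypt71 (351 nt) had 98.0% in ntr1, 94.3% in sap114, 93.2% in cwf22, 90.5% in prp22, 89.4% in prp10 and 72.1% in prp1, against 20.2% in WT 1 and 20.8% in WT 2, and no mutant overlapped with WT. ypt71 intron 2, of 54 nt, had 21.7 to 76.4% in the mutants (mean 48.6%), against 4.88% and 5.45% in WT. It is 1 of 4 tested traffic introns that would keep the reading frame if retained, since its length is a multiple of 3 and it holds no stop codon in frame. ypt7 intron 1 had 74.6% in ntr1, 38.8% in sap114, 53.2% in cwf22, 43.9% in prp22, 48.1% in prp10 and 21.5% in prp1, against 1.34% in WT 1 and 1.34% in WT 2, with sap114, otherwise a strain of high retention, second lowest. ypt7 intron 2 had 14.3 to 67.5% in the mutants (mean 39.5%), against 1.25% and 1.26% in WT.

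**Figure D2:**
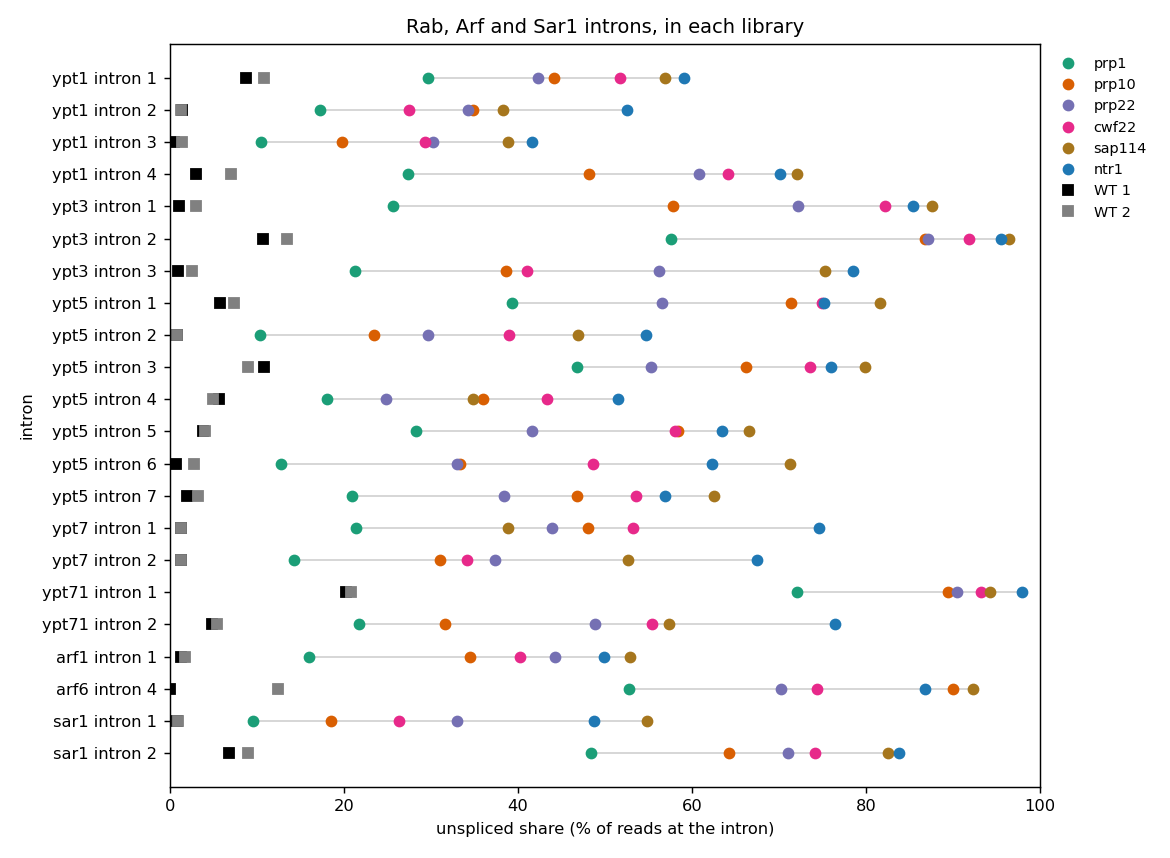
Unspliced share (percent of reads, x axis) of each tested Rab, Arf and Sar1 intron (y axis) in each library, with circles for the 6 mutants, squares for WT 1 and WT 2 and a grey line over the mutant range. All mutants lie above WT at each intron, and introns of 1 gene differ, as in ypt5, where mean mutant shares ran from 34.0% to 66.5%.

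Intron 1 of ypt1 held a second readout. It is 168 nt long (chrII:2933000-2933167, plus strand) and was unspliced at 59.1% in ntr1, 56.9% in sap114, 51.7% in cwf22, 42.3% in prp22, 44.2% in prp10 and 29.6% in prp1, against 8.78% in WT 1 and 10.9% in WT 2. Its odds rose (class log2 change 3.04 ± 0.85, SE, adjusted p = 8.7e-04, edgeR), but less than those of the typical intron of the same library (log2 change relative to the library median -1.89 ± 0.35, adjusted p = 3.0e-04). The relative call held under each of 13 other settings, with adjusted p from 1.1e-05 to 0.034. The table also lists 2 shorter junctions inside this intron, chosen for description after their values were seen. The upstream one (chrII:2933003-2933058, 56 nt) starts 3 bases after the annotated 5′ site, and the downstream one (chrII:2933122-2933167, 46 nt) ends at the annotated 3′ site. Both begin with GT and end in AG, and they leave a segment of 63 nt between them (chrII:2933059-2933121), shown here in capitals within the intron.
ypt1 intron 1: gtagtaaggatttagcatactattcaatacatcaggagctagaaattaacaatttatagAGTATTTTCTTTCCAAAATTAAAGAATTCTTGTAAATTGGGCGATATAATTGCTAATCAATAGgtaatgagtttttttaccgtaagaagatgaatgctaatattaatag

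Reads across the downstream nested junction numbered 126 in ntr1, 146 in sap114, 121 in cwf22, 107 in prp22, 78 in prp10 and 123 in prp1, against 24 in WT 1 and 60 in WT 2. Per 100 spliced reads of the annotated intron, that is 11.9 in ntr1, 17.1 in sap114, 15.8 in cwf22, 11.03 in prp22, 9.33 in prp10 and 7.86 in prp1, against 2.24 in WT 1 and 3.29 in WT 2, or 12.2 ± 3.62 (SD over 6 strains) and 2.77 ± 0.74 (SD, n = 2). All 6 mutants lay above both WT libraries. The upstream nested junction had 4.25 reads per 100 in ntr1, 4.92 in sap114, 7.84 in cwf22, 5.46 in prp22, 12.2 in prp10 and 8.18 in prp1, against 3.93 in WT 1 and 4.002 in WT 2. The mutants again lay above WT, in sap114 and ntr1 by under 1 read per 100. The order of the strains differed between the junctions: the upstream one was the more frequent of the pair in prp1 and prp10 and in both WT libraries, the downstream one in prp22, cwf22, sap114 and ntr1. How reads over the 63-nt segment entered the unspliced count of intron 1 is not given in the sources used here, and the ratio also moves with its denominator, the annotated spliced reads (765 to 1564 in the mutants, against 1070 and 1824 in WT).

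**Figure D3:**
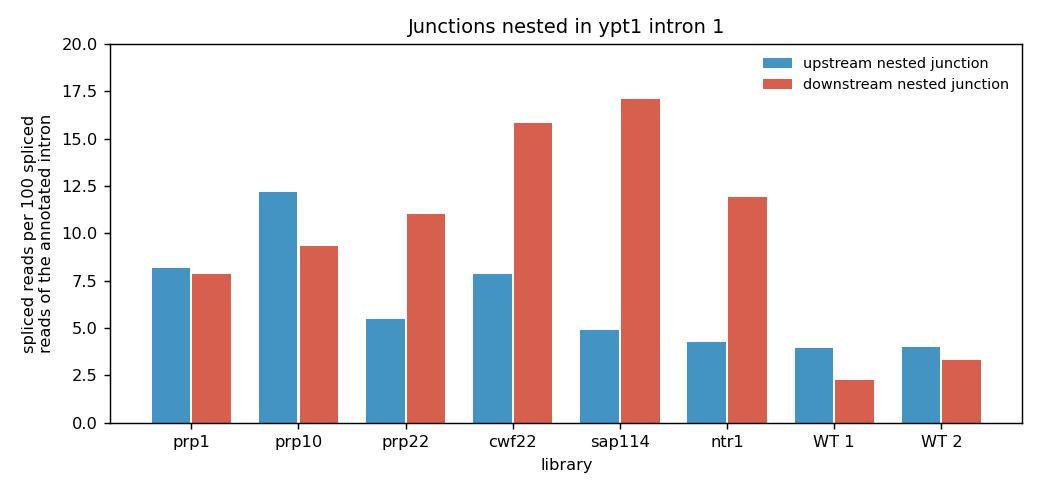
Spliced reads at the upstream (blue) and downstream (red) junction nested in ypt1 intron 1, per 100 spliced reads of the annotated intron (y axis), in each library (x axis). The downstream junction stands at 7.86 to 17.1 in the 6 mutants, against 2.24 and 3.29 in WT 1 and WT 2.

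Arf and Sar GTPases. sar1 encodes the GTPase that starts COPII coats, and its introns behaved differently. Intron 1, of 49 nt, had 48.7% in ntr1, 54.8% in sap114, 26.3% in cwf22, 33.0% in prp22, 18.6% in prp10 and 9.61% in prp1, against 0.82% in WT 1 and 0.987% in WT 2. Intron 2, of 257 nt, had 48.4 to 83.8% in the mutants (mean 70.7%), against 6.83% and 9.04% in WT, and exceeded intron 1 in every library. The single intron of arf1, which encodes the GTPase that recruits COPI and adaptors, had 49.9% in ntr1, 52.9% in sap114, 40.3% in cwf22, 44.2% in prp22, 34.5% in prp10 and 16% in prp1, against 1.33% in WT 1 and 1.77% in WT 2. Of the 4 introns of arf6, an Arf of the cell surface, only intron 4 reached the minimum, with 52.8 to 92.3% in the mutants (mean 77.7%), against 0% and 12.5% in WT on as few as 17 reads in a library. The other 3 are listed with 0 reads of either kind in 1 or more mutants: intron 2 has 0 in sap114, beside 107 to 149 reads in the other mutants, against 13 in WT 1 and 56 in WT 2. All 4 introns of this group rose, as 95.6% of all tested introns did.

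Coats. All 25 coat introns rose, as 95.6% of all tested introns did. The 14 adaptor introns (median mutant share 73.4%) lay above the 7 COPII (65.5%) and 4 COPI introns (55.6%). apm1 encodes the medium subunit of AP-1, which sorts cargo between Golgi and endosomes. Its intron 3 had 91.7% in ntr1, 92.9% in sap114, 85.2% in cwf22, 83.0% in prp22, 87.6% in prp10 and 61.6% in prp1, against 3.17% in WT 1 and 7.38% in WT 2. This rise of 78.4 points was the largest of the coat introns in points (log2 change of the odds 6.69 ± 1.05, SE, adjusted p = 7.3e-07, edgeR). On the odds scale other coat introns rose more, such as apm3 intron 1 (7.97) and sec231 intron 3 (7.48). apm3, the medium subunit of AP-3, which serves the route to the vacuole, had 57.0 to 92.1% in the mutants (mean 80.1%), against 0% and 4.55% in WT at intron 1. In aps3, the small subunit of AP-3, the 462-nt intron 2, the longest tested in the set, had 83.8 to 94.3% in the mutants (mean 91.5%), against 39.7% and 41.2% in WT. Its 42-nt intron 1 had 0 unspliced reads of 49 in the WT libraries, which allows a share of up to 6.12%, and 10 to 71.9% in the mutants. apl5, the delta subunit of AP-3, likewise had 0 of 81 WT reads unspliced at intron 3 (up to 3.70%), with a mean of 59.2% in the mutants.

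Introns of 1 COPI gene stood far apart. sec21 encodes the gamma subunit of COPI. Its intron 1 had 95.7% in ntr1, 94.1% in sap114, 91.2% in cwf22, 81.6% in prp22, 94.1% in prp10 and 38.6% in prp1, against 7.69% in WT 1 and 3.23% in WT 2, and prp1 lay far below the other mutants. Intron 2 had 78.9% in ntr1, 48.8% in sap114, 39.4% in cwf22, 39.4% in prp22, 26.8% in prp10 and 19.4% in prp1, against 2.35% in WT 1 and 1.52% in WT 2, the smallest rise of the coat introns at 40.2 points, with ntr1 far above the others. sec13, an outer COPII subunit, had 24.2 to 78.2% in the mutants (mean 59.4%), against 1.15% and 5.28% in WT at its only intron. sec231, an inner COPII subunit (Sec23 type), had 35.1 to 80.9% in the mutants (mean 65.7%), against 0% and 2.86% in WT at intron 3.

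Retromer. The 10 introns of vps35, vps26 and vps29 (the cargo-binding trimer) and of vps17 (a sorting nexin partner) all rose, as 95.6% of all tested introns did. The rises were 56.4 to 74.7 points. In points vps26 intron 1 rose most, with 92.4% in ntr1, 94.7% in sap114, 86.5% in cwf22, 87.6% in prp22, 88.1% in prp10 and 65.4% in prp1, against 4.17% in WT 1 and 17.9% in WT 2. vps35 intron 5 was the highest of its gene's 5 introns in 6 of 6 mutants, with 61.0 to 93.3% in the mutants (mean 84.2%), against 11.5% and 14.8% in WT. vps35 intron 4 rose by the fewest points, with 84.5% in ntr1, 58.6% in sap114, 44.4% in cwf22, 58.3% in prp22, 83.3% in prp10 and 28.9% in prp1, against 5.26% in WT 1 and 1.28% in WT 2, and here prp10 and ntr1 stood together above the other 4. vps29 intron 1 had 44.4 to 83.1% in the mutants (mean 72.0%), against 12% and 15.3% in WT.

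SNAREs and their partners. All 11 SNARE introns and all 9 introns of SNARE partners rose, as 95.6% of all tested introns did. sed5 encodes the Golgi syntaxin. Its intron had 99.1% in ntr1, 93.7% in sap114, 78.5% in cwf22, 76.4% in prp22, 86.5% in prp10 and 50.6% in prp1, against 5.88% in WT 1 and 0% in WT 2, and in ntr1 only 2 of 223 reads were spliced. vti1 encodes a SNARE of Golgi and endosomes, and its 5 introns had mean mutant shares of 35.6%, 47.7%, 48.1%, 58.6% and 51% from intron 1 to intron 5. The 37-nt intron 1, with apl1 intron 2 the shortest tested traffic intron, had 48.9% in ntr1, 36.4% in sap114, 40.9% in cwf22, 28.8% in prp22, 39.4% in prp10 and 19.0% in prp1, against 1.67% in WT 1 and 2.46% in WT 2, the smallest rise of the SNARE introns at 33.5 points. bet1 and sec22 encode SNAREs between ER and Golgi. sec22 intron 3 had 77.4% in ntr1, 29.9% in sap114, 68.0% in cwf22, 60% in prp22, 40.9% in prp10 and 29.5% in prp1, against 4.55% in WT 1 and 0% in WT 2, so that sap114 stood with prp1 at the low end. bet1 intron 1 had 25.9 to 66.4% in the mutants (mean 43.2%), against 2.38% and 5.26% in WT, with sap114 the lowest. Among the partners, vps33 (an SM protein of vacuolar fusion) had 83.5% in ntr1, 88.6% in sap114, 92.5% in cwf22, 85.5% in prp22, 83.8% in prp10 and 47.3% in prp1, against 4.17% in WT 1 and 5.13% in WT 2 at intron 1. Its intron 2 had 0 of 83 WT reads unspliced (up to 3.61%) and 38.9 to 86.2% in the mutants. sec17 (SNAP) intron 2 had 8.13 to 70.7% in the mutants (mean 47.6%), against 0% and 1.36% in WT, and the SM gene vps45 had 71.6%, 83.4% and 64.5% in the mutants at its 3 introns.

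Tethers. The exocyst holds secretory vesicles at the plasma membrane and TRAPP complexes act as tethers and Rab exchange factors. All 30 tether introns rose, as 95.6% of all tested introns did. The 13 exocyst introns (median rise 68.8 points) lay above the 15 TRAPP introns (53.6 points). sec8 encodes an exocyst subunit. Intron 1 of sec8 had 93.2% in ntr1, 97.1% in sap114, 74.2% in cwf22, 92.1% in prp22, 70.0% in prp10 and 62.5% in prp1, against 0% in WT 1 and 0% in WT 2, a rise of 81.5 points. The WT value rests on 0 of 37 reads, which allows a share of up to 8.11%, and the mean mutant share was 10.05 times that limit. sec8 intron 7 had 0 of 28 WT reads unspliced (up to 10.7%) and a mean of 47.2% in the mutants, the lowest of the gene. trs120, a TRAPP subunit, had introns far apart. Its intron 2 had 97.3% in ntr1, 93.1% in sap114, 91.8% in cwf22, 87.9% in prp22, 85.3% in prp10 and 71.0% in prp1, against 8.0% in WT 1 and 7.14% in WT 2, and intron 1 23.5 to 81.8% in the mutants (mean 49.5%), against 0% and 11.1% in WT. The long first introns of trs23 (205 nt) and trs33 (251 nt) were already partly unspliced in WT: trs23 intron 1 had 68.2 to 95.2% in the mutants (mean 87.3%), against 25.0% and 50% in WT, and trs33 intron 1 58.9 to 85.8% in the mutants (mean 77.0%), against 20.4% and 31.7% in WT. Both introns of trs65 had mean mutant shares of 71.2% and 71.3%.

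Other members. The ESCRT genes, which bud vesicles into endosomes, had the highest WT median (10.9%) and a median mutant share of 67.2% over 7 introns. vps38, a subunit of the PI3-kinase complex, had 67.4 to 98.4% in the mutants (mean 85.2%), against 0% and 6.06% in WT at the 1 intron tested, on as few as 10 reads. Introns of translocon and secretory enzyme genes (15 in 5 genes) had a median mutant share of 57.8%. sec63, a partner of the Sec61 channel, had 91.6% in ntr1, 90.4% in sap114, 83.2% in cwf22, 80.4% in prp22, 83.2% in prp10 and 45.8% in prp1, against 0% in WT 1 and 3.85% in WT 2 at intron 1. vps1, a dynamin-type GTPase, had 0 of 161 WT reads unspliced, which allows up to 1.86%, and shares of 43.5 to 76.4% in the mutants, at least 34.4-fold higher on average. Some genes that fit the symbol rule are annotated with products outside vesicle traffic, such as trs1 (threonine tRNA ligase) and vps71 (a Swr1 complex subunit), and 7 of the tested introns lie in such genes. vps66, annotated as an acyltransferase, held the only intron that did not pass the class test. Intron 3 of vps66 had 28.3% in ntr1, 0% in sap114, 9.52% in cwf22, 25.8% in prp22, 13.8% in prp10 and 9.38% in prp1, against 0% in WT 1 and 7.69% in WT 2. The 6 mutants overlapped with WT (adjusted p = 0.14, edgeR), on 21 to 46 reads a library. Without WT 2 it passed (adjusted p = 0.045). Intron 2 of vps66 was also low, at 4.0 to 29.2% in the mutants, with 0 of 47 WT reads unspliced (up to 6.38%), whereas intron 1 had 45.0 to 73.9% in the mutants (mean 57.2%), against 15.0% and 20% in WT.

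Paralogues could be set side by side within each library. These 3 pairs were chosen after their values were seen and carry no test. Over its introns ypt71 averaged 69.1% ± 13.9 in the mutants and 12.8% ± 0.40 in WT, while ypt7 averaged 43.1% ± 17.0 in the mutants and 1.296% ± 0.0044 in WT (SD, n = 6 strains and 2 WT libraries throughout). ypt71 lay above ypt7 in 6 of 6 mutants, by 16.1 to 30.7 points, and in both WT libraries. The second COPII gene sec2302 had 77.5% ± 10.2 in the mutants and 14.5% ± 3.81 in WT, and sec231 55.7% ± 19.6 in the mutants and 1.52% ± 0.22 in WT. The pair was 10.3 points apart in ntr1 and 41.0 in prp1. The second gene for the channel of ER import, sec6102, had 78.8% ± 8.05 in the mutants and 11.9% ± 1.49 in WT, and sec61 49.6% ± 16.3 in the mutants and 1.97% ± 0.34 in WT. The less read member of each pair in WT, ypt71, sec2302 and sec6102, had the higher mean unspliced share in all 8 libraries. This holds for means over unlike introns, not for each intron. ypt71 intron 2 had 31.6% in prp10, beside 48.1% at ypt7 intron 1. sec2302 intron 1 had 0% in both WT libraries, beside 1.22% and 1.51% at sec231 intron 2. In prp1 the gap was wide: 63.8% for sec6102 and 25.6% for sec61.

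**Figure D4:**
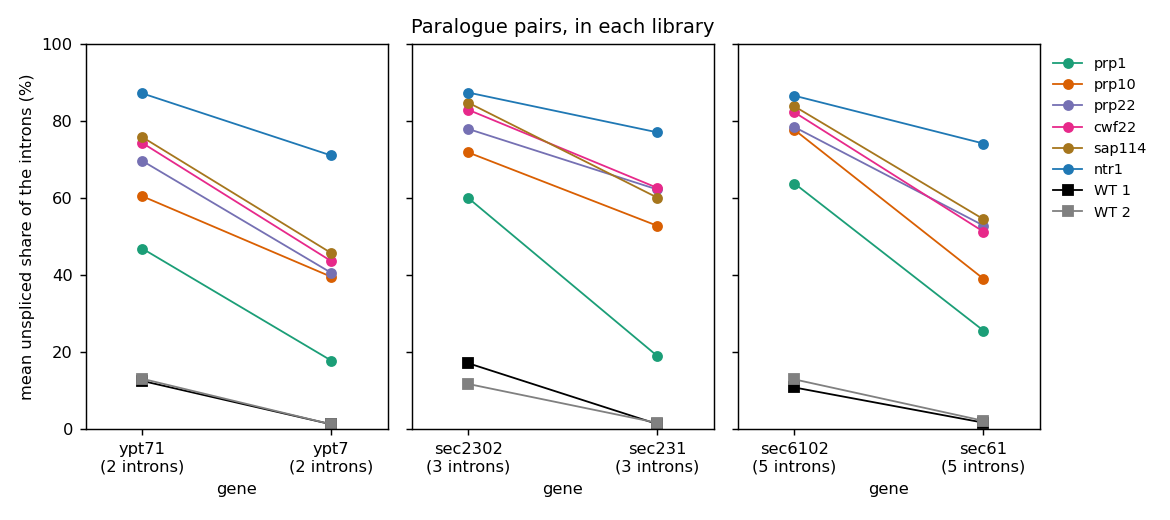
Mean unspliced share over the tested introns of each gene (percent, y axis) for 3 pairs of paralogues (x axis), with 1 line per library, circles for the 6 mutants and squares for WT 1 and WT 2. Every line falls from ypt71 to ypt7, from sec2302 to sec231 and from sec6102 to sec61.

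Next, each intron was set against the typical intron of its own library, by centring the log odds on the median of all tested introns. This asks which introns rose more or less than the whole did. Relative to that median, 9 traffic introns were higher in the mutants, where 7.85% of all tested introns were, and 7 were lower, where 12.6% were (edgeR, adjusted p below 0.05). At an unadjusted p under 0.05 the numbers were 20 higher, where 16.7% of all tested introns were, and 8 lower, where 18.1% were. Higher were ypt3 intron 1 (relative log2 change 1.89 ± 0.60, SE), apm1 intron 3 (1.69 ± 0.53), apm3 intron 1 (3.43 ± 1.20), sec231 intron 3 (2.71 ± 0.89), sec61 intron 5 (3.41 ± 0.97) and sec63 intron 1 (2.69 ± 0.90), together with vps1 intron 1, vps33 intron 2 and sec8 intron 1, for which no fold is given because WT had 0 unspliced reads. Lower were ypt1 intron 1 and ypt5 intron 4 (-1.73 ± 0.42, adjusted p = 0.0037) among the Rab introns, trs33 intron 1 (-1.59 ± 0.56), bet4 intron 1 (-2.73 ± 0.99), vps66 intron 1 (-2.23 ± 0.78), trs1 intron 1 (-1.43 ± 0.47) and vps55 intron 4 (-1.23 ± 0.43). bet4 encodes a subunit of the enzyme that attaches lipid anchors to Rabs. These calls depended on the WT pair: without WT 1 there were 1 higher and 1 lower, and without WT 2 there were 0 higher and 1 lower. ypt1 intron 1 was called lower in both cases. Without prp1, 15 were higher and 8 lower. Without prp10, cwf22, sap114 or ntr1, the number lower was 4, 4, 4 and 3. The shares of all tested introns called with a library left out are not given here. These shifts in number are therefore not a trait shown for traffic introns.

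**Figure D5:**
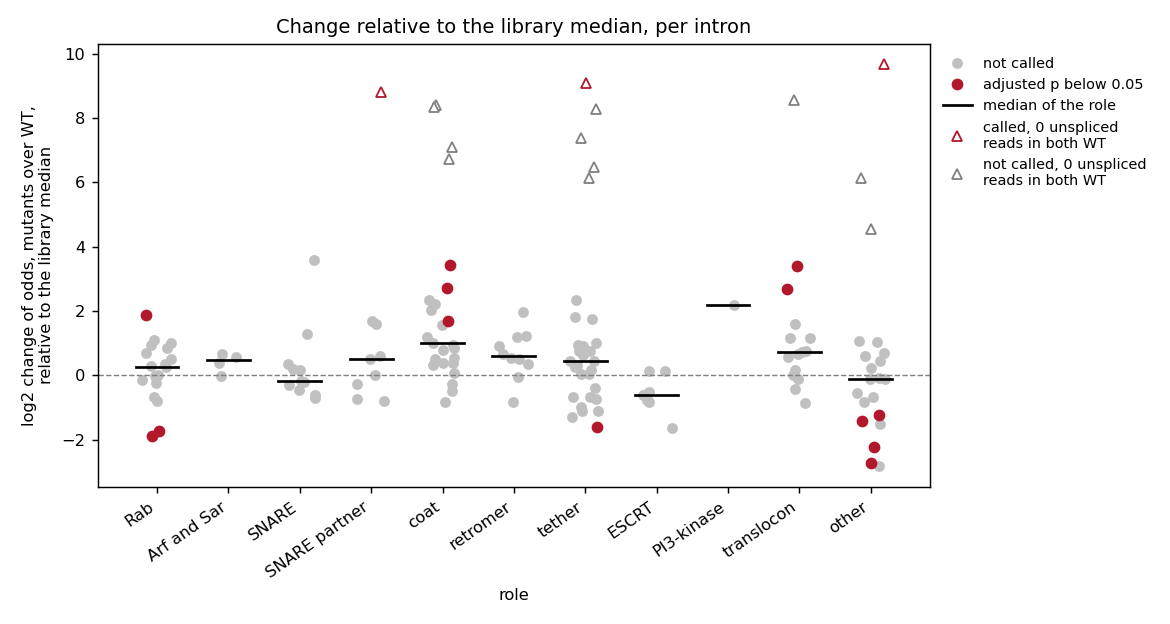
Log2 change of the odds of unspliced to spliced reads, mutants over WT, relative to the library median (y axis), for each tested intron by role (x axis). Red marks the 16 introns called, triangles introns with 0 unspliced reads in both WT libraries, whose value depends on the prior count, and black bars the median of each role, triangles included.

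No traffic intron was called in 1 strain against the other 5 mutants once each library was centred on its median: 0 introns were called higher or lower in any of the 6 strains, and 0% of all tested introns were (edgeR, 4 residual degrees of freedom). DESeq2 and limma gave 0 as well. At an unadjusted p under 0.05, ntr1 had 6 traffic introns higher (4.47% of all tested introns) and 4 lower (2.36%). For sap114 it was 3 higher (3.19%) and 8 lower (2.66%), and for cwf22 0 higher (0.805%) and 0 lower (0.447%). For prp22 it was 1 higher (0.686%) and 0 lower (2.33%), for prp10 4 higher (2.33%) and 1 lower (1.1%), and for prp1 3 higher (6.32%) and 10 lower (4.89%). The smallest of these p belonged to sec22 intron 3 in sap114 (relative log2 difference -2.56, adjusted p = 0.24), followed by sed5 intron 1 in ntr1 (3.48, adjusted p = 0.69), vps66 intron 3 in sap114 and sec21 intron 1 in prp1 (-2.18, adjusted p = 0.33).

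The members were then compared in what the symbol rule did not use. Their introns had a median of 56 nt and a range of 37 to 462 nt, beside a median of 59 nt over all tested introns. Of the 151, 25 (16.6%) were longer than 100 nt, against 24.1% of all tested introns. The 25 long ones had median shares of 72.7% (mutants) and 13.4% (WT), and the 57 of at most 50 nt 64.1% (mutants) and 4.34% (WT). Length and mean mutant share had a Spearman rho of 0.18 over the 151 introns and 0.32 over all tested introns. A share high in WT went with a share high in the mutants (rho 0.61, all tested introns 0.54). The 5′ site was GTAAGT at 38 introns (25.2%, all tested introns 28.5%) and GTATGT at 35 (23.2%, all tested introns 22.1%). Their median mutant shares were 66.5% and 59.5%, beside 67.3% and 65.4% over all tested introns. The branch motif spelled out above was found in 125 introns (82.8%, all tested introns 77.3%), with median mutant shares of 64.2% for CTAAC (58 introns), 64.8% for CTAAT (50), 64.55% for CTGAC (10) and 74.1% for CTGAT (7), and 65.1% for the 26 with none found. The 7 introns with CTGAT were also higher in WT, at 8.67%, and over all tested introns CTGAT had 70.9% in the mutants and 7.53% in WT. First introns (51) had a median of 68.5% and later introns (100) of 63.1%, beside 68.5% and 64.1% over all tested introns. Of the 148 introns in coding sequence, 130 would bring in a stop codon in frame if retained, beside 2870 of 3267 over all tested introns. Another 4 (2.70%, all tested introns 2.94%) would keep the frame: ypt71 intron 2, apl5 intron 3, sec8 intron 6 and vps41 intron 4. The other 3 lie in 5′ UTRs, in ypt3, vps60 and trs1. These relations are across introns of the same libraries and carry no test.

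Junctions other than the annotated ones were few in these genes apart from ypt1. Reads at other 5′ sites, per 1000 annotated spliced reads, numbered 11.6 ± 3.94 in the mutants (SD over 6 strains) and 2.69 ± 0.54 in WT, but without ypt1 they ran from 0.25 to 1.25 in the mutants, against 0.59 and 0.85 in WT. Over the whole table the same measure was 2.98 ± 0.41 in the mutants and 2.98 ± 0.22 in WT. Reads at other 3′ sites were 2.42 ± 0.27 per 1000 in the mutants and 2.06 ± 0.74 in WT. A junction that joins the 5′ site of ypt7 intron 1 to the 3′ site of its intron 2, leaving out the exon between (chrII:3147691-3148149), had 12 reads in ntr1, 2 in sap114, 1 in cwf22, 4 in prp22, 2 in prp10 and 4 in prp1, against 0 in both WT libraries. This too was picked after its values were seen.

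The 52 member introns below the minimum, in 26 genes, were not tested. They include all introns of 15 genes, among them sec1, ypt4, vps15, vps16, vps3 and apm4, and 44 of the 52 had under 10 reads in at least 1 mutant, 40 in WT 1 and 6 in WT 1 alone. In some library 33 of them had 0 reads. Of these, 8 had at least 10 reads in every library that listed any, with shares of 50 to 99.3% in those mutants, against 0 to 86.6% in WT. One was sec1 intron 2 (sec1 encodes the SM protein of exocytosis), listed at 96% of 99 reads in ntr1, 98.2% of 108 in cwf22, 99.3% of 148 in prp22, 91.4% of 81 in prp10 and 92.2% of 141 in prp1, with 0 reads in sap114, against 57.1% of 35 in WT 1 and 53.1% of 32 in WT 2. Over the summed reads of the 52, which come from different introns in each library, the unspliced share was 90.1% in ntr1, 86.9% in sap114, 85.9% in cwf22, 84.2% in prp22, 79.3% in prp10 and 72.2% in prp1, against 26.2% in WT 1 and 25.9% in WT 2. In each library this is above the median of the tested introns, but a sum weighs introns by their reads and a median does not. Of the 424 summed reads in WT 1, 67 were of vps38 intron 1, unspliced at 86.6%. The comparison therefore does not show that the typical untested intron was less spliced. Just inside the minimum, with 10 reads in the shallowest library, apl1 intron 5 averaged 81.5% in the mutants and 8.57% in WT, while sec15 intron 3 had 78.01% in the mutants and 6.25% in WT. Just outside it, with 9, sec15 intron 2 had 75.2% in the mutants and 0% in WT, and vps15 intron 3 had 64.8% in the mutants and 0% in WT.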

How the data were processed

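Poly(A) RNA of 8 libraries was sequenced. The authors deposited 1 table of raw read counts, with spliced and unspliced reads per junction and library, per the file headers. The submitters' processing notes name STAR 2.5, bedtools 2.26 and build ASM294v2. For unspliced reads, the counting rule is not given in the sources used here, nor is the read length. The minimum for a test was 10 reads at an intron in each of the libraries. edgeR 4.0.16 (R 4.3.3) was fitted to both counts of each intron, with every library given its own coefficient. The mutant class was set against WT with 6 residual degrees of freedom, also relative to the library median of the log odds, each strain against WT with 1, and each strain against the other mutants with 4, with Benjamini-Hochberg adjustment over all tested introns. A count of 0 was given a limit of 3 reads. The tests were run on simulated data first. DESeq2 1.42.0, limma 3.58.1 (pseudocount 0.5), Fisher's exact test, other read minimums, other centring and leaving out libraries were the alternatives. The WT libraries differed by more than sampling noise in their totals of spliced plus unspliced reads per tested intron (chi-square 6775.9, 3351 degrees of freedom). That check is on read totals, not on the unspliced share. Roles were assigned by gene symbol and annotated product.

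The members, gene lists and tests were chosen with earlier results of these data known. The named introns are the 6 largest and 6 smallest changes with at least 20 reads in every library, the extremes of each role, those not passing the class test, up to 6 relative calls each way, the extremes of genes with 4 or more tested introns, and all Rab, Arf and Sar introns. Others were named after their values were seen.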

Additional observations from a re-analysis of the deposited data

Results flagged for a closer look

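In 9 of the 56 named introns the prp1 share stood apart from the other 5 mutants, by a gap of more than 0.625 of the range of the 6 mutants (Dixon's 95% limit, which chance passes in about 1 of 20 groups). The mutants are 6 genotypes with 1 library each, so that such a gap lies between strains. Over all tested introns prp1 also had the lowest median of the mutants, 38.9%, beside 63.0% (prp10) to 81.5% (ntr1). How often the gap occurs over all tested introns was not counted, so it is not a trait shown for these introns. Among the Rab introns, prp1 had 57.6% unspliced at ypt3 intron 2, beside 86.8 to 96.4% in the others, and 72.1% at ypt71 intron 1, beside 89.4 to 98.0%. Among the coat introns it had 61.6% at apm1 intron 3, beside 83.0 to 92.9%, and 38.6% at sec21 intron 1, beside 81.6 to 95.7%. In retromer it had 61.0% at vps35 intron 5, beside 84.1 to 93.2%, and 65.4% at vps26 intron 1, beside 86.5 to 94.7%. Elsewhere it had 47.3% at vps33 intron 1, beside 83.5 to 92.5%, 45.8% at sec63 intron 1, beside 80.4 to 91.6%, and 55.2% at vps55 intron 2, beside 77.3 to 86.1%.

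Some role medians passed the same limit, again in the mutant library with the lowest median of all tested introns. The prp1 median was 32.2% for retromer, beside 69.3 to 88.0% in the other mutants, and 47.3% for SNARE partners, beside 69.2 to 82.4%. It was 26.7% for COPII, beside 62.2 to 78.6%, and 32.2% for adaptors, beside 69.3 to 88.1%.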

How the results depend on the processing

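The count of traffic introns that rose in the mutant class, 150, lay between 107 and 168 under 15 alternatives, following the number of introns tested, and 147 to 150 with 1 library left out. Of 56 named introns, 53 kept their class call in all 15, 2 lost it somewhere and 1 gained it. Counts against WT per strain stayed within 1.5 times under each alternative run. Calls relative to the library median were less stable: of the 56, 36 kept their call or lack of one in 13 alternatives, 14 lost it somewhere and 6 gained it. The 9 higher became 14 with at least 1 read in every library, 3 with DESeq2, 17 with limma and 0 to 15 with 1 library left out. The 7 lower became 2 with at least 1 read, 3 with centring on the mean and 1 to 8 with 1 library left out. The cause of these changes was not tested. The shares of all tested introns called under each alternative are not given here. The changes in number are therefore not a trait shown for traffic introns. Against the other mutants, 58 traffic introns were lower in prp1 without centring, against 0 with it. The share of all tested introns lower without centring is not given here. Over all tested introns prp1 also had the lowest median of the mutants, 38.9%. The 58 is therefore not a trait shown for traffic introns. Role medians moved by less than their spread. Their SD over the 6 mutants was 17.0 points for Rab and 20.5 for coat introns, beside a Rab minus coat gap of -17.1 points. Staying within such a spread does not show that the order of the roles holds. No direction reversed. No paired analysis was possible because each mutant has 1 library, with no replicate shared across groups. The shallowest library was WT 1, with a median of 33.0 reads per tested traffic intron.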
